A study of Mus musculus with 12 samples.

Results

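The 48 genes described here encode lysosomal hydrolases and their cofactors, proteins of the lysosomal membrane, the transcription factor Tfeb and subunits of the vacuolar ATPase, the proton pump that acidifies the lysosome. They were taken by symbol from the deposited count tables, where all 48 were found among 23238 gene symbols. All 48 also passed the filter on low counts, which kept 16484 genes. By role they fall into 11 proteases, 6 glycosidases, 7 lipid hydrolases, lipid transfer proteins and cofactors, 8 membrane proteins, Tfeb, 6 subunits of the membrane-embedded V0 sector of the pump, 8 subunits of its cytosolic V1 sector, and the accessory subunit Atp6ap1.

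Lysosomes degrade material that reaches them from the cell surface, from phagosomes and from autophagosomes, and their hydrolases work at an acid pH that the pump maintains. The V1 sector hydrolyses ATP and the V0 sector carries protons across the membrane. Genes of lysosomal proteins often carry E-box elements near their start that are bound by TFEB and its relatives TFE3 and MITF. In lung, macrophages are rich in lysosomes, and type 2 alveolar cells store surfactant in lysosome-related lamellar bodies.

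RNA was sequenced from mouse lung tissue in 12 samples, 3 in each of 4 groups. The group NoIR received no irradiation, and the groups IR_8d, IR_11d and IR_14d were taken after irradiation, at 8, 11 and 14 days (d). The series design says that irradiated tissue came only from the irradiated parts of the lung. The sources used here do not give dose, radiation source, strain, age, sex or genotype, nor the lung region of the unirradiated samples. The labels number the replicates and do not say whether each is its own animal. The p-values therefore refer to the spread among these libraries, which may be technical. In bulk tissue, fewer cells of a type and less RNA per cell cannot be told apart. The comparisons ask which of these genes stood above or below NoIR at a given time, and which moved from one time to the next. The 3 comparisons with NoIR share its 3 libraries, as comparisons between times share theirs.

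The libraries held 19624554 to 27765751 counts, and 18204 to 19288 genes were detected in each. Lung markers were present in every group but lower after irradiation. The summed level of 10 markers of type 2 alveolar cells was 33342 to 36900 counts per 1e6 (CPM, on scaled library sizes) in NoIR and 19166 to 21647 CPM at 14 d, where 5 were called lower and 0 higher. For 7 type 1 alveolar cell markers the sums were 6704 to 6955 CPM and 2975 to 3516 CPM (6 lower), and for 5 club cell markers 15537 to 28407 CPM and 5012 to 7633 CPM (4 lower). The part of these markers in the results was not tested. Of the 3 libraries at 11 d, replicate 1 was the highest for 45 of the 48 genes. Counts of calls between neighbouring times are given with and without it. Most shares, medians and log2 changes at 11 d are given only with it.

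Lysosomal genes rose after irradiation, with few called at 8 d and most at 14 d. In the fit of all libraries none was called lower at any time. Against NoIR, 12 of 48 were called higher at 8 d (edgeR quasi-likelihood F test, Benjamini-Hochberg adjusted p below 0.05 over all genes tested), beside 13.0% of all genes called higher and 10.6% called lower. At 11 d the count was 34 of 48, beside 19.4% of all genes higher and 17.8% lower, and at 14 d it was 42 of 48, beside 20.0% and 18.9%. The median log2 change of the 48 was 0.22 (8 d), 0.68 (11 d) and 0.91 (14 d), while the median over all genes tested lay at 0.01, -0.01 and 0.01. Among the called genes, 1 at 8 d, 16 at 11 d and 21 at 14 d had reached 2-fold.

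For the count of 0 genes called lower, an unadjusted p below 0.05 would have passed 2 genes at 8 d, 0 at 11 d and 0 at 14 d. DESeq2 called 1 gene lower at 8 d, which was Asah1 (log2 change -0.42, adjusted p = 0.032), and 0 at 11 d and 14 d. The count at 8 d depended on single libraries. It fell from 12 to 5 without NoIR replicate 1, to 7 without NoIR replicate 2, to 5 without NoIR replicate 3 and to 7 without IR_8d replicate 2, where 1 of the 7 was lower. Without IR_11d replicate 1 or without IR_14d replicate 3, 1 gene was also called lower at 8 d. At 11 d and 14 d leaving out any 1 library gave 28 to 38 and 37 to 44 calls. When the 4 groups were tested jointly, 40 of 48 were called (edgeR quasi-likelihood F test), beside 39.2% of all genes.

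**Figure D1:**
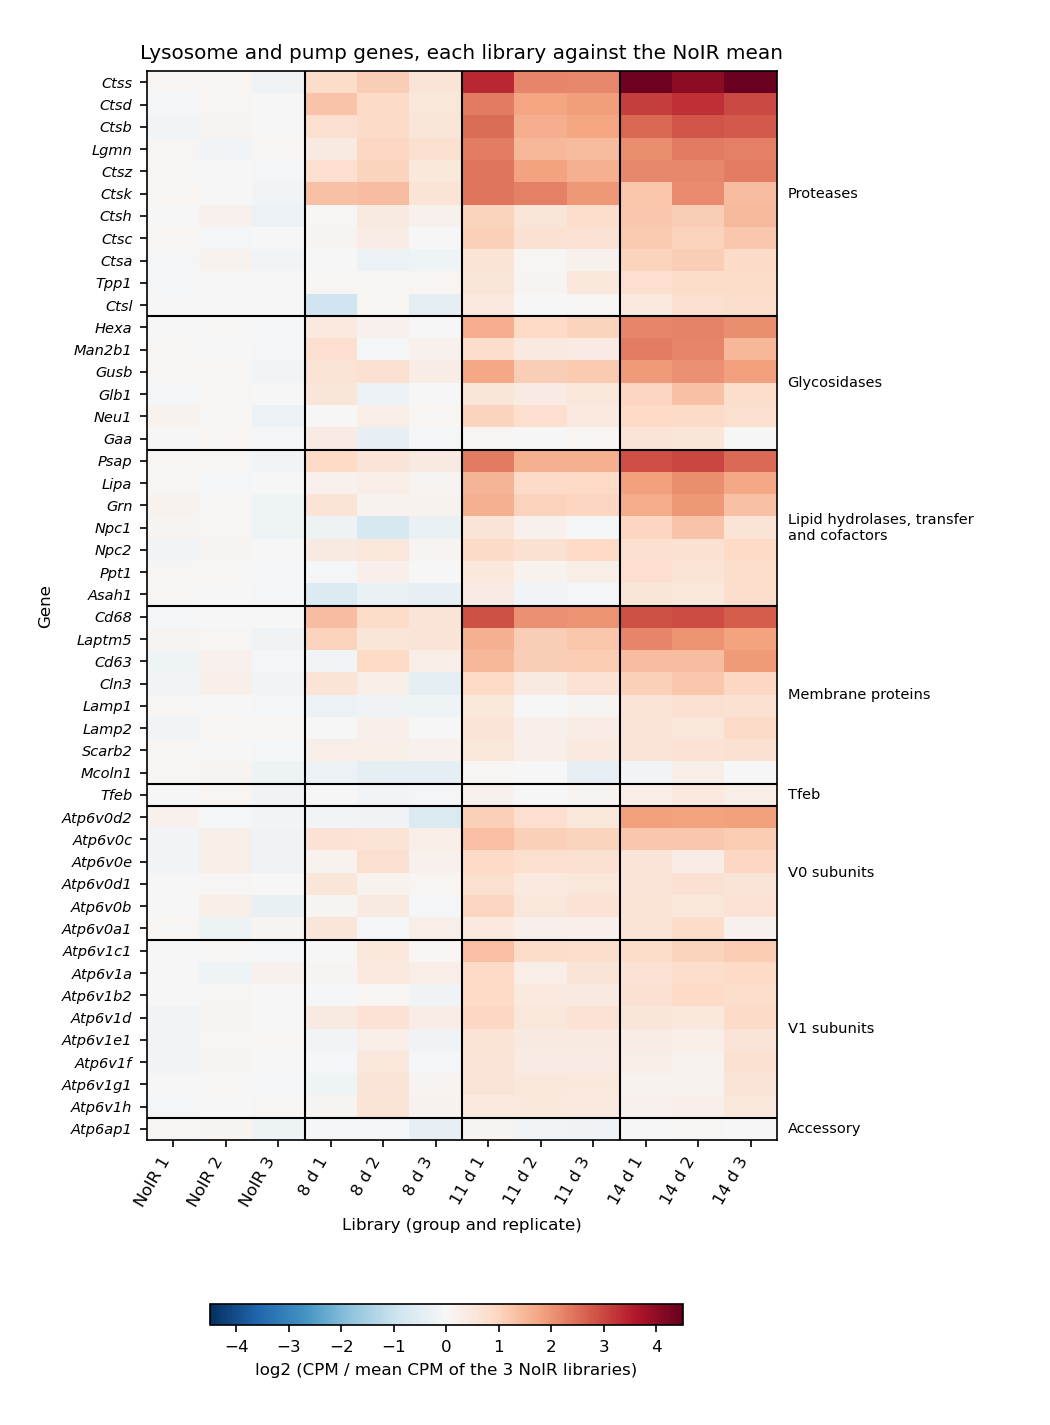
Each row is 1 of the 48 genes and each column 1 library; colour gives the log2 ratio of its CPM to the mean of the 3 NoIR libraries. The 8 d columns are pale, 11 d replicate 1 is darker than the other 11 d libraries, and the darkest cells are Ctss at 14 d.

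The 48 genes together took 0.783% ± 0.031 of all counts in NoIR (SD, n = 3). At 8 d they took 1.03% ± 0.0804, at 11 d 1.83% ± 0.482, and 3.38% ± 0.0823 by 14 d. At 11 d replicate 1 had 2.38%, beside 1.51% and 1.59% in replicates 2 and 3. Ctss alone went from 0.0544% to 1.07% between NoIR and 14 d. Without Ctss the share of the other members still went from 0.728% to 2.31%, and that of the 15 pump subunits from 0.148% to 0.251%.

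Most markers of leukocytes and macrophages were called higher when these genes rose, but at 8 d their summed level, which is mostly Lyz2, lay below NoIR. Of 12 such markers 7 were called higher and 2 lower at 8 d, 9 higher and 0 lower at 11 d, and all 12 higher at 14 d. Their summed level was 8087 to 8847 CPM in NoIR and 6762 to 7832 CPM at 8 d. It was 9983 to 15201 CPM at 11 d, then 18888 to 24365 CPM at 14 d, and no marker was at 0. The lysozyme gene Lyz2 made up most of that sum, with means of 7916 CPM in NoIR and 6340 CPM at 8 d, where it was not called. The 2 markers called lower at 8 d were Mertk and Mrc1. All markers other than these 2 and Lyz2 had a higher mean at 8 d than in NoIR. At 11 d replicate 1 was also the highest library for this sum, with 15201 CPM beside 10844 and 9983 CPM. Adgre1, which encodes the macrophage marker F4/80, went from 24.2 ± 4 CPM in NoIR to 38.8 ± 4.27, 103 ± 44.9 and 164 ± 19.2 CPM at 8, 11 and 14 d. The part of leukocyte markers in the changes of the lysosomal genes was not tested.

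Against NoIR, markers of alveolar macrophages went mostly the other way. Of the 9 that were used, 7 were called lower and 2 higher at 8 d, 6 lower and 2 higher at 11 d, and 5 lower and 1 higher at 14 d. Their summed level was 1262 to 1534 CPM in NoIR and 712 to 814 CPM at 8 d. The later ranges were 934 to 1153 CPM (11 d) and 850 to 1008 CPM (14 d), with none at 0. Within these sums the markers took different courses. Chil3 had means of 611 CPM in NoIR and 170, 290 and 299 CPM at 8, 11 and 14 d. Car4 had 394 CPM in NoIR and 258, 260 and 67.6 CPM at those times. From 8 d to 14 d Chil3 thus rose while Car4 fell further. Fabp1, a fatty acid-binding protein gene of these cells, had the largest fall of the 9, from 17.4 ± 0.265 to 0.312 ± 0.183 CPM at 14 d. Those called higher were Marco and Itgax at 8 d and 11 d, and Itgax at 14 d. From 8 d to 14 d 4 of the 9 were called higher and 3 lower. Endothelial markers were called lower in 3, 7 and 8 of 8 at the 3 times, and their summed level lay between 3754 and 4080 CPM in NoIR and between 1045 and 1318 CPM at 14 d. The part of these markers was not tested either.

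Proteases held 6 of the 12 calls at 8 d and the largest change of all members at 14 d. Of the 11 genes 6 were called higher at 8 d, 9 at 11 d and all 11 at 14 d, with median log2 changes of 0.70, 1.79 and 1.64. The 6 called at every time were Ctsb, Ctsd, Ctsk, Ctss, Ctsz and Lgmn, and the 2 first called at 14 d were Ctsa and Ctsl.

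Ctss encodes cathepsin S, a cysteine protease of antigen-presenting cells that trims the MHC class II invariant chain (mm10 chromosome 3, 95526786 to 95556403, plus strand). Its level was 563, 577 and 494 CPM in NoIR, 975, 1165 and 807 CPM at 8 d, 5658, 2476 and 2419 CPM at 11 d, and 11314, 8968 and 11962 CPM at 14 d. No group overlapped with the next, and replicate 1 stood far above the other 2 libraries at 11 d. The log2 change was 0.85 (SE 0.28, adjusted p = 0.042, edgeR) at 8 d, 2.69 (SE 0.30, adjusted p = 1.2e-05) at 11 d and 4.30 (SE 0.32, adjusted p = 3.4e-07) at 14 d, which is 19.7-fold. The call at 8 d rested on single libraries: without any one of the 3 NoIR libraries or of IR_8d replicates 1 and 2, the adjusted p was 0.076 to 0.12, and without IR_14d replicate 1 it was 0.056.

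Ctsd encodes cathepsin D, the main aspartic protease of the lysosome (chromosome 7, 142375911 to 142388038, minus strand). In NoIR it stood at 444, 508 and 467 CPM, at 8 d at 1143, 863 and 670 CPM, at 11 d at 2394, 1612 and 1743 CPM and at 14 d at 4065, 4585 and 3723 CPM. Every library of a later group was above every library of the group before. The log2 changes were 0.92 (SE 0.20), 2.02 (SE 0.21) and 3.12 (SE 0.22), with adjusted p = 0.0048, 7.1e-06 and 2.5e-07 by edgeR. Some of its annotated exon bases are shared with an unnamed locus on the same strand, so part of its count is uncertain.

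Ctsk encodes cathepsin K, the collagen-degrading protease of osteoclasts that fibroblasts and macrophages also make (chromosome 3, 95499256 to 95509362, plus strand). It had 37.9, 35.7 and 33 CPM in NoIR, 89.4, 93.6 and 54.3 CPM at 8 d, 187, 172 and 138 CPM at 11 d, and 84.9, 155 and 92.9 CPM at 14 d. All irradiated libraries lay above NoIR, and 14 d overlapped with both 8 d and 11 d. Among the proteases it had the largest log2 change at 8 d (1.15, SE 0.23, adjusted p = 0.0027, edgeR), reached 2.22 (SE 0.24) at 11 d and stood at 1.64 (SE 0.24) at 14 d. It was the only protease whose highest mean was at 11 d; the difference of 14 d from 11 d, a log2 change of -0.58, was not called. Of 8 osteoclast markers 7 could be tested, and 3 were called higher at 8 d, 4 at 11 d and 4 at 14 d, with none lower. Of all genes 13.0%, 19.4% and 20.0% were called higher at these times, and 10.6%, 17.8% and 18.9% lower. With so few markers the absence of lower calls is not a result about them. Their summed level was 97.9 to 114 CPM in NoIR and 171 to 221 CPM at 14 d. Acp5, which is also in the list of further hydrolases, made up most of that rise, from a mean of 9.28 to 75.2 CPM. The 4 called markers were Acp5, Ocstamp, Dcstamp and, from 11 d on, the receptor gene Tnfrsf11a, whose mean went from 13.1 to 25.1 CPM. Oscar had 2, 11, 4 and 2 counts in the 4 groups, and Calcr and Ocstamp had means of at most 1.12 CPM. Of 7 fibroblast markers 2 were called higher and 2 lower at 8 d, and 2 higher and 4 lower at 11 d and again at 14 d. Their summed level was 1490 to 1578 CPM in NoIR, 920 to 1088 CPM at 11 d and 984 to 1148 CPM at 14 d. The part of the osteoclast and fibroblast markers in the change of Ctsk was not tested.

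Ctsl encodes cathepsin L, a broad cysteine endopeptidase (chromosome 13, 64359337 to 64370890, minus strand), and had the smallest change among the proteases at 14 d. Its NoIR libraries had 245, 251 and 241 CPM, those at 8 d 132, 258 and 186 CPM, those at 11 d 331, 242 and 255 CPM, and those at 14 d 330, 401 and 429 CPM. Only 14 d lay wholly above NoIR, while 2 of the 8 d libraries lay below it and 1 above. On the log2 scale the changes were -0.36 (SE 0.20, adjusted p = 0.23, edgeR), 0.17 (SE 0.20, adjusted p = 0.54) and 0.65 (SE 0.20, adjusted p = 0.019). Without IR_8d replicate 2 the change at 8 d was -0.63 with an adjusted p = 0.024, and the call at 14 d was lost without NoIR replicate 1, NoIR replicate 3 or IR_14d replicate 3 (adjusted p = 0.054 to 0.064). Its exons share bases with unnamed loci on both strands.

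The other proteases lay between these. Ctsb (cathepsin B) went from 351 ± 27.2 to 2326 ± 196 CPM at 14 d, a log2 change of 2.73 (SE 0.21), Lgmn, the asparaginyl endopeptidase legumain, by 2.24 (SE 0.22), and Ctsz (cathepsin Z) by 2.20 (SE 0.19). Ctsh and Ctsc, aminopeptidases that trim or activate other enzymes, had 1.27 (SE 0.17) and 1.14 (SE 0.14) at 14 d without a call at 8 d. Ctsa, the carboxypeptidase that also protects beta-galactosidase and neuraminidase, had -0.15 (SE 0.15) at 8 d and 1 (SE 0.15, 1.99-fold) at 14 d, and Tpp1, a tripeptidyl peptidase, 0.80 (SE 0.12). Exons of Ctsa overlap Neurl2 and Pltp, and those of Ctsb overlap Fdft1, on the opposite strand; the strand setting of the counting is not given in the sources used here, so reads of the partners cannot be told apart.

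Cathepsin S took a larger share of the protease RNA in each later group. As CPM per kilobase of transcript, which allows levels of different genes to be compared, Ctss was first of the 11 in every group and its share of their summed level went from 28.8% ± 0.767 in NoIR to 34.5% ± 1.79, 48.4% ± 6.79 and 65% ± 4.56 (SD, n = 3). Ctsd held 16% ± 1.03 in NoIR and 16.1% ± 3.05 at 14 d. Ctsh, which is also made by type 2 alveolar cells, was second in NoIR with 19.4% ± 1.79 and came after Ctss and Ctsd at 14 d with 5.37% ± 0.318, although its own level rose. These ranks depend on the length used, which was chosen after seeing the data. With the union of all annotated exons as length, Ctsh held 9.46% in NoIR, behind Ctsd with 19.6%, and 2.11% at 14 d, while Ctss was first in both with 39.1% and 70.9%.

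**Figure D2:**
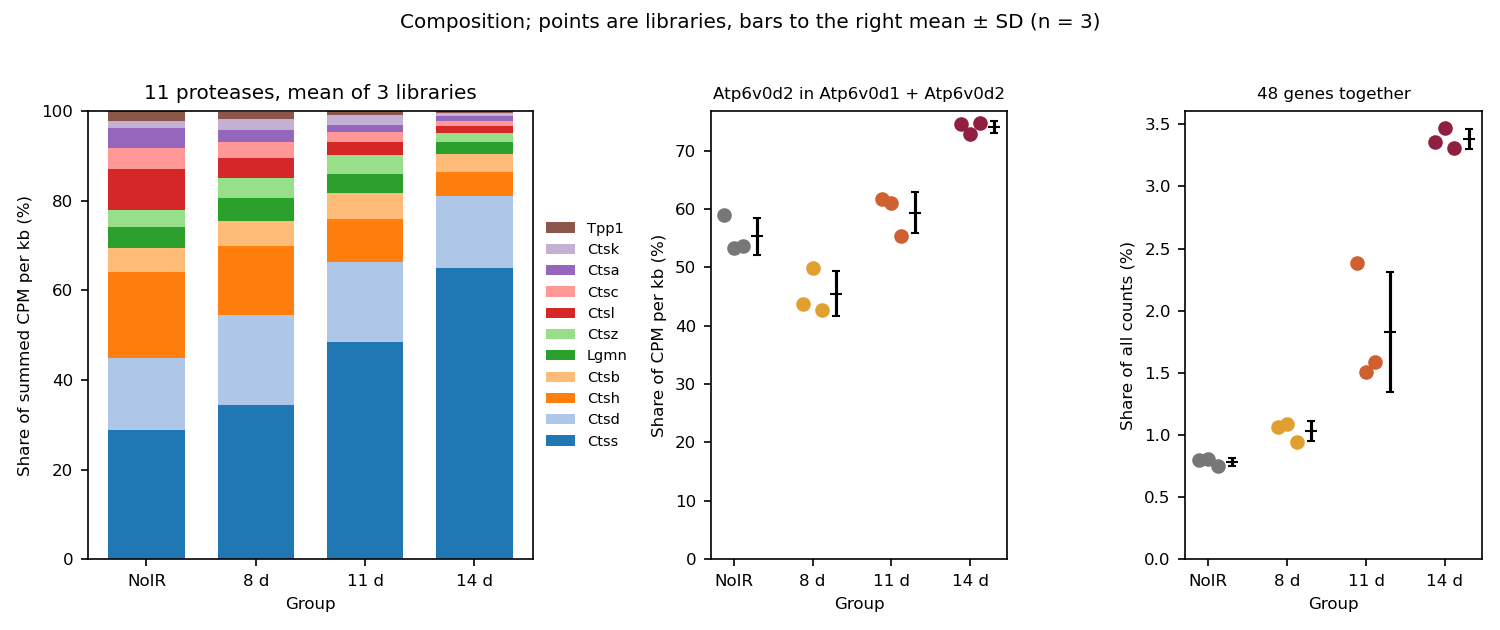
Left, mean share of each protease in the summed CPM per kilobase of the 11 (stacked bars, 3 libraries a group); middle, share of Atp6v0d2 in the sum of both d subunit genes; right, share of all 48 genes in all counts (points are libraries, bars mean ± SD). Ctss grows from 28.8% to 65%, Atp6v0d2 dips to 45.4% at 8 d and reaches 74% at 14 d, and the share of all counts goes from 0.783% to 3.38%.

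Glycosidases were mostly called at the later times. Of 6 genes 1 was called higher at 8 d, 3 at 11 d and 5 at 14 d, with median log2 changes of 0.19, 0.64 and 1.5. The count at 8 d is near the 13.0% of all genes called higher then.

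Hexa encodes the alpha subunit of beta-hexosaminidase, which degrades gangliosides (chromosome 9, 59539540 to 59565109, plus strand). Its levels were 97.3, 99.7 and 89.4 CPM in NoIR, 130, 110 and 95.4 CPM at 8 d, 294, 179 and 190 CPM at 11 d, and 436, 452 and 402 CPM at 14 d. The 8 d libraries overlapped with NoIR, and those at 11 d and 14 d lay above all earlier ones. The log2 change was 0.23 (SE 0.18, adjusted p = 0.39, edgeR) at 8 d, 1.21 (SE 0.18, adjusted p = 0.00012) at 11 d and 2.17 (SE 0.18, adjusted p = 8e-07) at 14 d. Per kilobase it was the first of the 6 in every group, with 43.2% ± 0.119 of their summed level in NoIR and 54.6% ± 3.18 at 14 d.

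Man2b1 encodes the lysosomal alpha-mannosidase, which trims N-glycans (chromosome 8, 85083270 to 85098282, plus strand). NoIR gave 75.2, 74.8 and 69.3 CPM, 8 d 125, 68.1 and 82.7 CPM, 11 d 126, 97.2 and 94.9 CPM and 14 d 359, 334 and 206 CPM. Its 14 d libraries were all above those of 11 d, although replicate 3 was well below the other 2. Its log2 changes were 0.33 (SE 0.22), 0.53 (SE 0.23) and 2.04 (SE 0.23), with adjusted p = 0.33, 0.077 and 8.9e-06 by edgeR. At 11 d the call depended on the fit, with an adjusted p = 0.0053 when only the 2 groups were fitted.

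Gaa encodes acid alpha-glucosidase, which degrades lysosomal glycogen (chromosome 11, 119267887 to 119285454, plus strand), and was the glycosidase called at no time. It had 54.8, 58 and 51.8 CPM in NoIR, 70.6, 43 and 52.5 CPM at 8 d, 58.2, 54.4 and 58.5 CPM at 11 d, and 81.9, 80.3 and 54.3 CPM at 14 d. NoIR overlapped with every irradiated group. The log2 change at 14 d was 0.40 (SE 0.18, adjusted p = 0.099, edgeR), with a 95% interval from 0.04 to 0.75, and without IR_14d replicate 3 it was 0.56 with an adjusted p = 0.019. At 8 d and 11 d it was 0.01 (SE 0.18) and 0.06 (SE 0.18).

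Of the other 3, Gusb, which encodes beta-glucuronidase, was called at all times and went from 38.3 ± 2.48 CPM in NoIR to 56.2 ± 7.08, 98.9 ± 24.4 and 146 ± 10.4 CPM. Glb1 (beta-galactosidase, whose exons share bases with Tmppe on the same strand) was called at 14 d with a log2 change of 1.05 (SE 0.19), and Neu1 (neuraminidase) at 11 d and 14 d with 0.75 (SE 0.16) and 0.84 (SE 0.16).

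Among the genes of lipid breakdown 1 of 7 was called higher at 8 d, 4 at 11 d and 7 at 14 d. Their median log2 changes were 0.21, 0.81 and 0.99. The count at 8 d is near the 13.0% of all genes called higher then.

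Psap encodes prosaposin, the precursor of the saposins that lift sphingolipids to their hydrolases (chromosome 10, 60277627 to 60302597, plus strand). Libraries of NoIR had 627, 614 and 554 CPM, of 8 d 1126, 894 and 789 CPM, of 11 d 3034, 1827 and 1832 CPM, and of 14 d 4474, 4842 and 3495 CPM. The 4 groups did not overlap. The fitted log2 changes were 0.65 (SE 0.21, adjusted p = 0.041, edgeR), 1.90 (SE 0.22, adjusted p = 1.7e-05) and 2.84 (SE 0.23, adjusted p = 5.8e-07). The call at 8 d was lost without any one of the 6 libraries of that comparison except IR_8d replicate 3, with adjusted p = 0.059 to 0.14, and without IR_14d replicate 1 (adjusted p = 0.055). Its share of the summed level per kilobase of the 7 genes went from 36.7% ± 0.792 to 67% ± 3.5.

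Lipa encodes lysosomal acid lipase, which releases cholesterol and fatty acids from lipoprotein lipids (chromosome 19, 34492318 to 34527474, minus strand). It stood at 55.9, 52.2 and 54 CPM without irradiation, at 62.1, 66.7 and 59 CPM at 8 d, at 158, 98.2 and 101 CPM at 11 d and at 196, 229 and 179 CPM at 14 d. Each group lay above the one before. Against NoIR the log2 changes were 0.21 (SE 0.17), 1.14 (SE 0.17) and 1.90 (SE 0.17), with adjusted p = 0.4, 0.00013 and 1.3e-06 by edgeR.

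Asah1 encodes acid ceramidase (chromosome 8, 41340197 to 41374773, minus strand). Its values were 296, 279 and 275 CPM in NoIR, 186, 230 and 220 CPM at 8 d, 363, 260 and 276 CPM at 11 d, and 411, 397 and 496 CPM at 14 d. All 3 libraries at 8 d were below NoIR, 11 d overlapped with NoIR, and all at 14 d were above. The log2 change was -0.42 (SE 0.15, adjusted p = 0.055, edgeR) at 8 d, 0.08 (SE 0.15, adjusted p = 0.7) at 11 d and 0.62 (SE 0.15, adjusted p = 0.0043) at 14 d. Between 8 d and 14 d it rose by 1.04 (SE 0.15, adjusted p = 0.00047).

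Npc1, the membrane exporter of lysosomal cholesterol, had a like course, with -0.39 (SE 0.20, adjusted p = 0.17, edgeR) at 8 d, when its 3 libraries also lay below NoIR, and 0.99 (SE 0.20, adjusted p = 0.0011) at 14 d. Npc2, its soluble partner, stood at 482 ± 37.4, 618 ± 81.8, 847 ± 64.8 and 824 ± 70.8 CPM and was called at 11 d and 14 d. Grn, the precursor of the granulins, rose by 1.24 (SE 0.20) and 1.67 (SE 0.21) at 11 d and 14 d, and Ppt1, a palmitoyl-protein thioesterase, by 0.73 (SE 0.12) at 14 d.

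Among the membrane proteins Cd68 and Laptm5, known from leukocytes, had the largest changes at 14 d and Mcoln1 the smallest. Of the 8 genes 2 were called higher at 8 d, 6 at 11 d and 7 at 14 d, with median log2 changes of 0.23, 0.53 and 0.87.

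Cd68 encodes macrosialin, a mucin-like membrane glycoprotein of macrophage endosomes and lysosomes (chromosome 11, 69664213 to 69666153, minus strand). Its levels ran to 63.3, 66.5 and 65.7 CPM in NoIR, 171, 117 and 97.9 CPM at 8 d, 480, 270 and 264 CPM at 11 d, and 476, 493 and 428 CPM at 14 d. NoIR, 8 d and 11 d were apart from each other, and replicate 1 of 11 d lay within the range of 14 d. The log2 changes were 0.98 (SE 0.23, adjusted p = 0.0066, edgeR), 2.37 (SE 0.24, adjusted p = 5.6e-06) and 2.84 (SE 0.24, adjusted p = 8.8e-07).

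Laptm5 encodes a lysosomal transmembrane protein of blood cells (chromosome 4, 130913125 to 130936141, plus strand). It had 99.5, 95.1 and 81.6 CPM in NoIR, 189, 135 and 139 CPM at 8 d, 282, 197 and 217 CPM at 11 d and 426, 376 and 323 CPM at 14 d. Each group was above the one before it. The log2 change went from 0.74 (SE 0.17, adjusted p = 0.0062, edgeR) to 1.33 (SE 0.17, adjusted p = 4.5e-05) and 2.03 (SE 0.18, adjusted p = 1e-06).

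Lamp1 and Lamp2 encode the most abundant glycoproteins of the lysosomal membrane. Lamp1 (chromosome 8, 13159161 to 13175338, plus strand) had 639, 632 and 600 CPM in NoIR, 518, 553 and 548 CPM at 8 d, 863, 637 and 684 CPM at 11 d, and 958, 1018 and 996 CPM at 14 d. All its 8 d libraries were below NoIR and all its 14 d libraries above. Its log2 changes were -0.21 (SE 0.13), 0.22 (SE 0.13) and 0.67 (SE 0.13), with adjusted p = 0.28, 0.2 and 0.001 by edgeR.

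Lamp2 (chromosome X, 38401357 to 38456454, minus strand) had 262, 307 and 296 CPM in NoIR, 284, 335 and 286 CPM at 8 d, 436, 338 and 363 CPM at 11 d and 434, 409 and 518 CPM at 14 d. The 8 d libraries overlapped with NoIR, the later ones did not. Its log2 change at 11 d was 0.39 (SE 0.14, adjusted p = 0.041, edgeR) and at 14 d 0.65 (SE 0.14, adjusted p = 0.0019). The call at 11 d was lost in 9 of the settings tried (adjusted p = 0.053 to 0.18, the highest without IR_11d replicate 1). Per kilobase, Lamp1 held 43.1% ± 1.69 of the summed level of the 8 genes in NoIR and 27.9% ± 1.18 at 14 d, and Cd68 8.16% ± 0.272 and 23.9% ± 2.58.

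Mcoln1 encodes the lysosomal calcium channel TRPML1 (chromosome 8, 3500457 to 3515232, plus strand) and was the membrane protein called at no time. Its values were 26.3, 26.6 and 21.1 CPM in NoIR, 20.4, 18.8 and 18.5 CPM at 8 d, 26.3, 25.3 and 19.3 CPM at 11 d and 22.7, 30 and 24.4 CPM at 14 d. The 8 d libraries lay just below NoIR, and the other groups overlapped with it. The fitted log2 changes were -0.36 (SE 0.16, adjusted p = 0.11, edgeR), -0.06 (SE 0.16, adjusted p = 0.78) and 0.06 (SE 0.15, adjusted p = 0.8). The 95% interval at 14 d ran from -0.25 to 0.36.

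Of the remaining membrane proteins, Cd63, a tetraspanin of late endosomes, went from 138 ± 18.8 to 415 ± 93.8 CPM at 14 d (log2 change 1.59, SE 0.23); 1 pseudogene copy by name makes its count less certain. Scarb2, the receptor that carries beta-glucocerebrosidase to the lysosome, had small changes with a narrow error, 0.40 (SE 0.11) at 11 d and 0.64 (SE 0.11) at 14 d. Cln3, a protein mutated in juvenile Batten disease, rose by 0.66 (SE 0.22) and 1.07 (SE 0.22). Exons of Cln3 share 442 bases with Apobr on the opposite strand, so part of its count is uncertain. Shorter overlaps on the opposite strand are those of Hexa (Tmem202), Lamp1 (Grtp1), Ppt1 (Cap1), Atp6v1h (Rgs20), Grn (Fam171a2), Atp6v1e1 (Slc25a18) and Ctsz (Nelfcd).

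**Figure D3:**
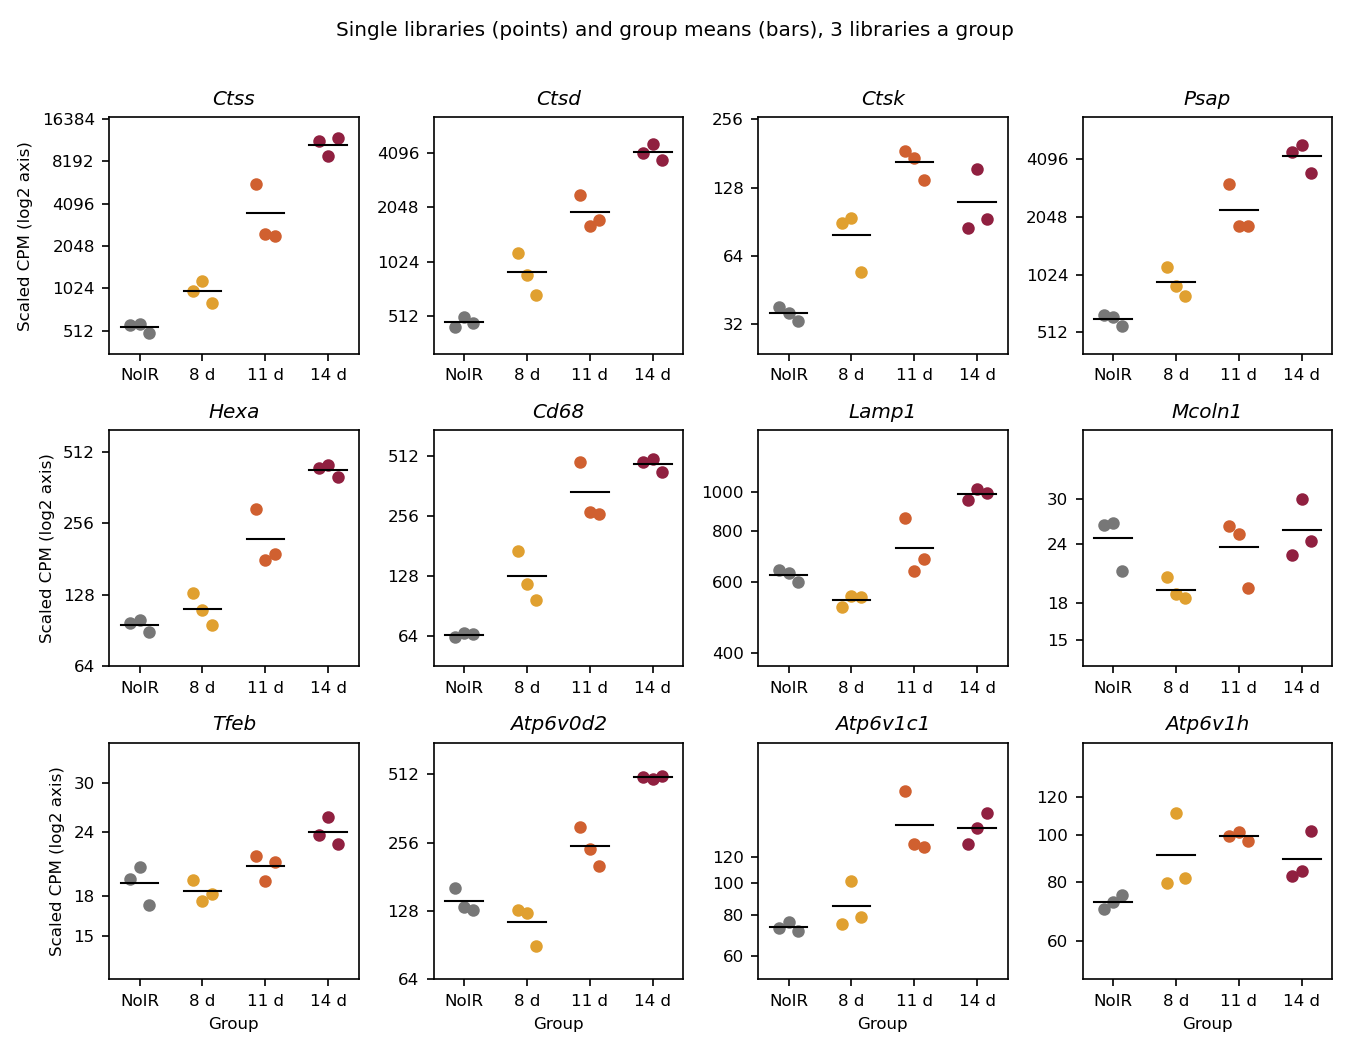
Scaled CPM of 12 genes in each library (points, log2 axis) with group means (bars), 3 libraries a group. Ctss, Ctsd, Psap, Hexa and Cd68 climb at 11 d and 14 d, Ctsk is highest at 11 d, Mcoln1 stays within 18.5 to 30 CPM, and Atp6v0d2 is lowest at 8 d and highest at 14 d.

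Tfeb, the factor that activates lysosomal genes when it enters the nucleus (chromosome 17, 47737030 to 47792419, plus strand), changed little at the RNA level. It had 19.4, 20.5 and 17.3 CPM in NoIR, 19.4, 17.6 and 18.2 CPM at 8 d, 21.6, 19.3 and 21 CPM at 11 d, and 23.7, 25.7 and 22.8 CPM at 14 d. Only the 14 d libraries lay wholly above NoIR. The log2 change at 14 d was 0.34 (SE 0.12, adjusted p = 0.038, edgeR), and 8 d and 11 d had -0.05 and 0.11 (SE 0.12 each). This call was lost in 10 of the settings tried, among them the replicate block (adjusted p = 0.051), library size alone (0.05), no filter (0.077) and the fit of only the 2 groups (0.064).

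Genes of the MiT/TFE family and of the complex on the lysosomal surface that regulates it were taken as a list of 16. At 8 d 0 were called higher and 1 lower, at 11 d 6 and 0, and at 14 d 8 and 0, with median log2 changes of -0.06, 0.28 and 0.35. The counts at 8 d do not exceed the 13.0% higher and 10.6% lower of all genes. Tfec, a family member expressed in macrophages, had 8.12 ± 2.22, 4.95 ± 1.54, 16.6 ± 5.27 and 25.4 ± 4.96 CPM in the 4 groups, and its change at 14 d was 1.64 on the log2 scale (SE 0.27, adjusted p = 0.00025, edgeR). Fnip2, a partner of folliculin, had 1.56 (SE 0.24) and Mitf 1.12 (SE 0.27) at 14 d, while Flcn, which encodes folliculin, fell by 0.52 (SE 0.12, adjusted p = 0.0065) at 8 d and rose by 0.34 (SE 0.12, adjusted p = 0.037) at 14 d.

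Most pump subunits changed by less than 2-fold. Those called at 2-fold or more were Atp6v0c and Atp6v1c1 at 11 d, and Atp6v0c and Atp6v0d2 at 14 d. Atp6v0d2 was the highest at 14 d, and Atp6v1c1 then lay just short of 2-fold, with a log2 change that rounds to 1. Of the 15 pump genes 2 were called higher at 8 d, 12 at 11 d and 11 at 14 d, with median log2 changes of 0.21, 0.61 and 0.63. The counts at 8 d, with 1 call each in V0 and V1, are near the 13.0% of all genes called higher then. They are not a result about these genes. Among the other 33 members the counts were 10, 22 and 31, with medians of 0.23, 0.79 and 1.14. The highest group mean lay at 14 d for 31 of those 33 genes, and among the pump genes at 11 d for 8 genes and at 14 d for 7. Whether the 2 sets differ was not tested.

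Of the 6 V0 subunits 1, 5 and 6 were called higher at the 3 times, with median log2 changes of 0.27, 0.75 and 0.64. Atp6v0d2 encodes the d2 isoform of the subunit that couples the sectors, known from osteoclasts, kidney and macrophages (chromosome 4, 19876841 to 19922605, minus strand). It had 161, 133 and 128 CPM in NoIR, 129, 125 and 89.4 CPM at 8 d, 299, 241 and 201 CPM at 11 d and 501, 491 and 504 CPM at 14 d. The 8 d libraries reached down from the lower edge of NoIR, and 11 d and 14 d each lay above all earlier libraries. Against NoIR the log2 changes were -0.30 (SE 0.17, adjusted p = 0.23, edgeR), 0.81 (SE 0.17, adjusted p = 0.0019) and 1.83 (SE 0.17, adjusted p = 1.9e-06). It was the 1 pump gene called between 11 d and 14 d (log2 change 1.02, SE 0.17, adjusted p = 0.012).

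Its partner Atp6v0d1, the d1 isoform found in most cells, went from 72.6 ± 1.82 to 112 ± 4.85 CPM at 14 d (log2 change 0.63, SE 0.13). Per kilobase, d2 held 55.3% ± 3.15 of the sum of both isoforms in NoIR, 45.4% ± 3.87 at 8 d, 59.4% ± 3.49 at 11 d and 74% ± 1.08 at 14 d (SD, n = 3). The libraries of 8 d and 14 d lay apart from each other and from NoIR, and those of 11 d overlapped with NoIR.

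Atp6v0c encodes the proteolipid that forms most of the rotating ring (chromosome 17, 24163866 to 24169702, minus strand). Its libraries had 69.2, 90.7 and 68.5 CPM in NoIR, 119, 116 and 93 CPM at 8 d, 192, 158 and 153 CPM at 11 d and 178, 176 and 168 CPM at 14 d. All irradiated libraries were above NoIR, and 11 d and 14 d overlapped. The log2 change was 0.52 (SE 0.14, adjusted p = 0.018, edgeR), 1.14 (SE 0.15) and 1.19 (SE 0.15). Without NoIR replicate 1, NoIR replicate 3 or IR_8d replicate 1 the call at 8 d was lost (adjusted p = 0.054 to 0.084), and 2 pseudogene copies by name make its count less certain.

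Atp6v0a1, the a1 isoform of the proton-path subunit, had the lowest log2 change among the V0 genes at 14 d (chromosome 11, 101009452 to 101063719, plus strand). NoIR libraries stood at 94.3, 74.1 and 94.8 CPM, those of 8 d at 128, 82 and 105 CPM, those of 11 d at 118, 103 and 103 CPM and those of 14 d at 133, 155 and 100 CPM. The 8 d group overlapped with NoIR and the later ones did not. The log2 change at 14 d was 0.56 (SE 0.18, adjusted p = 0.024, edgeR), a call that was lost without NoIR replicate 2, IR_14d replicate 1 or IR_14d replicate 2 (adjusted p = 0.067 to 0.11). Atp6v0b and Atp6v0e, smaller proteins of the membrane sector, had 0.72 (SE 0.17) and 0.78 (SE 0.19) at 11 d and 0.60 (SE 0.17) and 0.64 (SE 0.19) at 14 d.

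Of the 8 V1 subunits 1 was called higher at 8 d, 7 at 11 d and 5 at 14 d, with median log2 changes of 0.21, 0.57 and 0.53. Atp6v1c1 encodes the C1 subunit, which links the stalks when the sectors assemble (chromosome 15, 38661933 to 38692446, plus strand). Levels were 72.9, 76.3 and 71.5 CPM in NoIR, 74.8, 101 and 78.9 CPM at 8 d, 190, 131 and 128 CPM at 11 d and 131, 147 and 162 CPM at 14 d. The 11 d and 14 d libraries overlapped with each other and lay above NoIR and 8 d. On the log2 scale the changes were 0.21 (SE 0.16), 1.02 (SE 0.16) and 1 (SE 0.16), with adjusted p = 0.4, 0.00026 and 0.00023 by edgeR.

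Atp6v1b2 encodes the B2 isoform of the nucleotide-binding ring (chromosome 8, 69088646 to 69113711, plus strand). It had 88.8, 92.9 and 87.9 CPM in NoIR, 86.5, 96.7 and 81.2 CPM at 8 d, 169, 123 and 120 CPM at 11 d, and 144, 167 and 156 CPM at 14 d. NoIR lay within the spread of 8 d, and both later groups were above it. The log2 changes were -0.03 (SE 0.14), 0.61 (SE 0.14) and 0.79 (SE 0.14), with adjusted p = 0.91, 0.0034 and 0.00039 by edgeR. Atp6v1a, the catalytic subunit, had a log2 change of 0.61 (SE 0.16) at 11 d and 0.79 (SE 0.16) at 14 d.

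Atp6v1h encodes the H subunit, a regulator of the assembled pump (chromosome 1, 5070018 to 5162529, plus strand). Its values were 70.1, 72.4 and 75 CPM in NoIR, 79.5, 111 and 81.4 CPM at 8 d, 99.4, 101 and 97.4 CPM at 11 d, and 82, 84 and 102 CPM at 14 d. All 9 irradiated libraries were above NoIR, with 8 d replicate 2 and 14 d replicate 3 apart from their groups. The fitted log2 changes were 0.32 (SE 0.14, adjusted p = 0.11, edgeR), 0.45 (SE 0.14, adjusted p = 0.018) and 0.30 (SE 0.14, adjusted p = 0.1). The call at 11 d was lost without NoIR replicate 1, NoIR replicate 2 or IR_11d replicate 2 (adjusted p = 0.051 to 0.065), and without IR_8d replicate 2 the change at 14 d had an adjusted p = 0.039.

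The stalk subunit genes Atp6v1d and Atp6v1e1 were called at 11 d and 14 d, with log2 changes of 0.71 and 0.63 (SE 0.15 each) and of 0.47 and 0.42 (SE 0.14 each), and Atp6v1d also at 8 d with 0.47 (SE 0.15). Atp6v1g1 was called at 11 d alone, with 0.53 (SE 0.17). Atp6v1f was called at no time, with 0.44 (SE 0.17, adjusted p = 0.054, edgeR) at 11 d, although its 3 libraries at 11 d and at 14 d all lay above NoIR.

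Atp6ap1, an accessory subunit that guides assembly of the pump (chromosome X, 74297097 to 74304721, plus strand), had no call. It stood at 106, 112 and 85.9 CPM in NoIR, at 98.5, 96.9 and 78.4 CPM at 8 d, at 110, 92.9 and 90.6 CPM at 11 d and at 98.7, 105 and 103 CPM at 14 d. Every irradiated group overlapped with NoIR. Its log2 changes were -0.15, -0.05 and 0.01 (SE 0.13 each), with adjusted p = 0.46, 0.8 and 0.96 by edgeR.

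**Figure D4:**
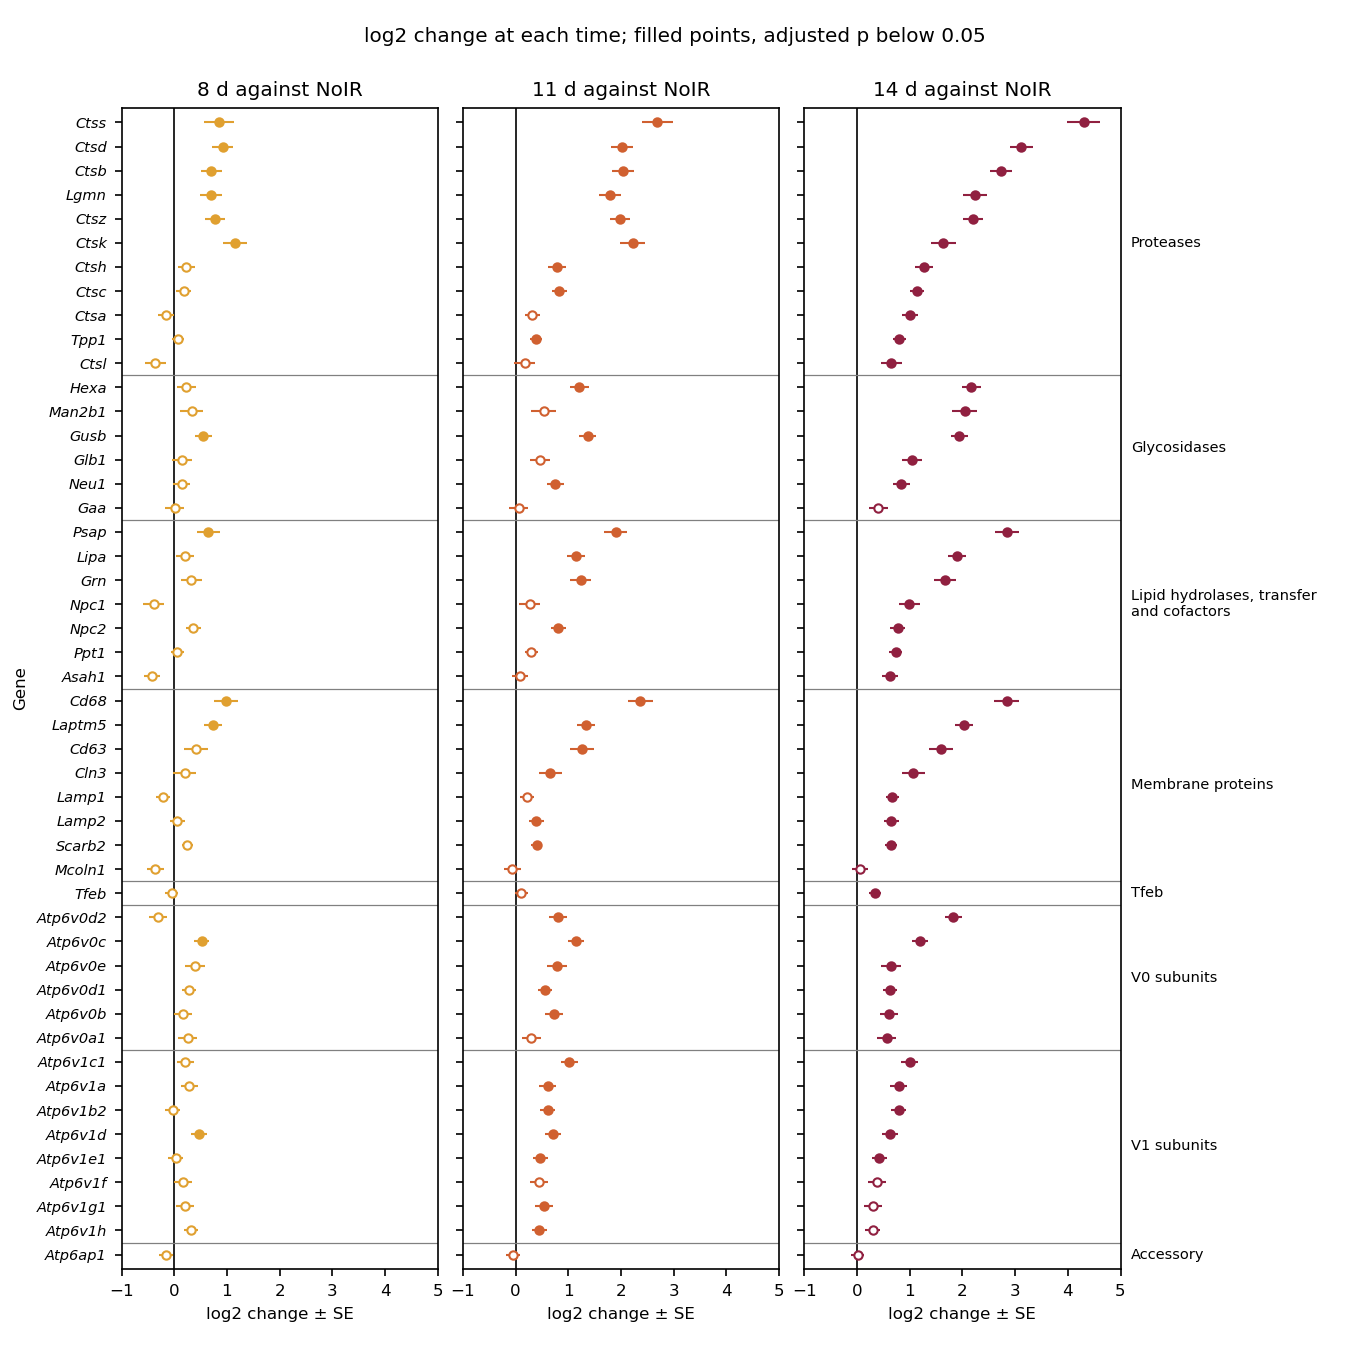
log2 change ± SE of the 48 genes against NoIR at 8, 11 and 14 d; filled points have an adjusted p below 0.05. Psap, Cd68, Laptm5 and the proteases other than Ctsk move right from panel to panel, while Ctsk goes from 2.22 at 11 d to 1.64 at 14 d.

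Of 13 other subunits and assembly factors that could be tested, 3 were called higher and 1 lower at 8 d, 3 and 4 at 11 d and 6 and 4 at 14 d. The counts at 8 d and 11 d are near the shares of all genes called and are not a result about these genes. Those shares were 13.0% higher and 10.6% lower at 8 d and 19.4% and 17.8% at 11 d. At 14 d they were 20.0% higher and 18.9% lower, and the count of 4 lower is likewise not a result about this list. Tcirg1, which encodes the a3 isoform of osteoclasts and macrophages, went from 26.1 ± 2.69 to 99.7 ± 17 CPM at 14 d (log2 change 1.93, SE 0.20, adjusted p = 3.4e-06, edgeR). Atp6v0a4 and Atp6v1b1, isoforms of proton-secreting epithelia, and Atp6v1c2, an isoform known from lung and kidney, were lower at 14 d, with log2 changes of -1.66 (SE 0.29), -3.32 (SE 0.74) and -1.63 (SE 0.19). Atp6v0e2 fell by 1.14 (SE 0.17).

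Beyond the 24 hydrolases and cofactors among the members, 29 further lysosomal hydrolases and activators gave 7 higher and 1 lower at 8 d, 14 and 4 at 11 d and 18 and 4 at 14 d, with median log2 changes of 0.21, 0.46 and 0.74. The counts of lower genes do not exceed the 10.6%, 17.8% and 18.9% of all genes called lower at these times. Acp5, the tartrate-resistant acid phosphatase, had 3.02 (SE 0.20, adjusted p = 1.7e-07, edgeR) at 14 d, and Gla, alpha-galactosidase A, had 2.36 (SE 0.22). The genes against this direction at 14 d were the hyaluronidases Hyal1 (-1.30, SE 0.26) and Hyal2 (-1.51, SE 0.20), the cathepsin Ctsf (-0.63, SE 0.17) and the sulfatase Ids (-0.33, SE 0.12).

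Of 19 further membrane proteins and transporters 3 were called higher and 2 lower at 8 d, 7 and 2 at 11 d and 9 and 2 at 14 d. The counts at 8 d are near the 13.0% higher and 10.6% lower of all genes. The later counts of lower genes are below the shares of all genes, 17.8% at 11 d and 18.9% at 14 d. None of these is a result about this list. Gpnmb, a glycoprotein of macrophage lysosomes and melanosomes, went from 19.1 ± 1.36 CPM in NoIR to 1080 ± 173 CPM at 14 d (log2 change 5.82, SE 0.35, adjusted p = 1.5e-07, edgeR). Slc11a1, the metal transporter NRAMP1 of phagosomes, had a log2 change of 3.91 (SE 0.26) at 14 d, and Mcoln2, a relative of Mcoln1, had 0.48 ± 0.196 CPM in NoIR and 6.3 ± 1.62 CPM at 14 d (3.70 on the log2 scale, SE 0.39, adjusted p = 4.3e-06, edgeR). The 2 lower at 8 d were Mcoln3 and the cystine exporter gene Ctns, and the 2 lower at 11 d and 14 d were Laptm4a (-0.65, SE 0.18) and Laptm4b (-0.74, SE 0.18). Lamp3, which in lung marks the lamellar bodies of type 2 alveolar cells, was called at no time and had 762 ± 98.1 CPM in NoIR and 665 ± 84.4 CPM at 14 d.

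Sorting receptors and enzymes that send hydrolases to the lysosome were called higher in 1 of 9 at 8 d, 3 at 11 d and 5 at 14 d, and lower in 0, 1 and 0, the 1 being Sort1. The count of higher genes at 8 d and that of lower genes at 11 d do not exceed the shares of all genes, 13.0% and 17.8%. Igf2r and M6pr, which encode both mannose 6-phosphate receptors, had 1.07 (SE 0.22) and 0.59 (SE 0.12) at 14 d. Of the cystatins, which inhibit cysteine cathepsins, 5 of 11 could be tested and 3, 2 and 3 were called higher. The shares of all genes called higher were 13.0%, 19.4% and 20.0%. Cst6, called at no time, had only 11 to 31 counts over the 3 libraries of a group. Stfa2l1, called higher at 8 d alone, had only 4 to 66. Cstb rose from 30.1 ± 2.25 to 127 ± 41 CPM at 11 d and 106 ± 18.6 CPM at 14 d, and Cst7, an inhibitor found in leukocytes, from 30 counts over the 3 NoIR libraries to 222 counts at 11 d.

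Between times, too, calls were in the upward direction. From 8 d to 11 d 17 of 48 were called higher and 0 lower (edgeR quasi-likelihood F test), beside 1.75% of all genes higher and 0.394% lower, with a median log2 change of 0.51. For that count of 0, an unadjusted p below 0.05 would have passed 0, and DESeq2 called 26 higher and 0 lower. From 11 d to 14 d the counts were 8 and 0, beside 0.813% and 0.983% of all genes, with a median of 0.33; an unadjusted p below 0.05 gave 22 higher and 1 lower, and DESeq2 16 and 0. From 8 d to 14 d 34 were higher and 0 lower, beside 8.10% and 7.29%, with a median of 0.84 beside -0.02 for all genes; an unadjusted p below 0.05 gave 39 and 0, and DESeq2 37 and 0.

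The counts between neighbouring times moved with single libraries. From 8 d to 11 d, 17 calls became 11 without IR_8d replicate 1, 0 without IR_8d replicate 3 and 6 without IR_11d replicate 1. From 11 d to 14 d, 8 calls became 18 without IR_11d replicate 1, 0 without IR_11d replicate 2, 1 without IR_11d replicate 3, 0 without IR_14d replicate 1 and 3 without IR_14d replicate 2, and 5 without NoIR replicate 1, NoIR replicate 2 or IR_8d replicate 3. The 8 genes were Ctsa, Ctsd, Ctss, Hexa, Man2b1, Psap, Lipa and Atp6v0d2. Ctss had a log2 change of 1.61 (SE 0.29, adjusted p = 0.015, edgeR), Man2b1 of 1.5 (SE 0.23, adjusted p = 0.0083) and Ctsd of 1.11 (SE 0.20, adjusted p = 0.017). By role, from 11 d to 14 d 7 of the 33 members outside the pump and 1 of the 15 pump genes were called, with medians of 0.45 and -0.03. A difference between these sets was not tested.

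Promoter sequence shows where the E-box lies in these genes. Windows from 250 bases before to 50 after the start were matched by symbol for 39 of the 48 in the RefSeq promoter table (GRCm38.p6); Ctsb, Ctsh, Npc1, Asah1, Atp6v0d2, Atp6v1b2, Atp6v1c1, Atp6v1g1 and Atp6v1h had no entry. The heptamer TCACGTG on either strand was in a window of 12 of 39 (30.8%, exact 95% interval 17% to 47.6%), beside 1160 of all 27025 genes in the table (4.29%). The core CACGTG, which the heptamer contains, was in 13 of 39 (33.3%) beside 8.09% of all genes, and the palindrome TCACGTGA, which contains both, in 7 of 39 (17.9%) beside 1.12%.

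The windows below are shown because they range from genes with large changes (Ctsd and Lgmn) through moderate ones (Cln3, Atp6v1a and Atp6v0d1) to the uncalled Gaa and Mcoln1. Each is read 5′ to 3′ on the strand of the gene, with the match in capitals, and they lie at chr7:142387902-142387943 (Ctsd), chr12:102439119-102439159 (Lgmn), chr7:126583334-126583375 (Cln3), chr16:44139367-44139408 (Atp6v1a), chr8:105566044-105566085 (Atp6v0d1), chr11:119267805-119267845 (Gaa) and chr8:3500456-3500497 (Mcoln1); Gaa and Mcoln1 are on the plus strand and the others on the minus strand.
Ctsd: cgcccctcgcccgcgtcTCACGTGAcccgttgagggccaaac
Lgmn: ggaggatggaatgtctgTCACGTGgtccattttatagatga
Cln3: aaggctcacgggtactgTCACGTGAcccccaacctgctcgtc
Atp6v1a: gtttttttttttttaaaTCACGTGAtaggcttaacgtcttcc
Atp6v0d1: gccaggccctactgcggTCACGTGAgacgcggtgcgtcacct
Gaa: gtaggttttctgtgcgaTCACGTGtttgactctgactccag
Mcoln1: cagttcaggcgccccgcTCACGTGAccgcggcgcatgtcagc

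Lamp1 held 4 copies of the core in a short stretch at its start, and Ctss, the gene with the largest change, held none in its window. The stretches are chr8:13159085-13159166 (Lamp1, plus strand, each core in capitals) and chr3:95526636-95526785 (Ctss, plus strand, the 150 bases before the start).
Lamp1: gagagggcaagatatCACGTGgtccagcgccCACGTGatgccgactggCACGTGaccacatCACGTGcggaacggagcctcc
Ctss: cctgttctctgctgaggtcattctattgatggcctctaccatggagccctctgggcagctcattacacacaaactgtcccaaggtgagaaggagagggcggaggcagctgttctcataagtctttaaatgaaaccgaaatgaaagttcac

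Genes with and without the heptamer overlapped in their changes. At 14 d, 10 of the 12 genes with the heptamer were called higher, with log2 changes from 0.06 to 3.12 and a median of 0.73, and 25 of the 27 without it, from 0.01 to 4.30 with a median of 1.14. A match is a description of letters and not a bound site, and its absence says only that these letters are not in this window.

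**Figure D5:**
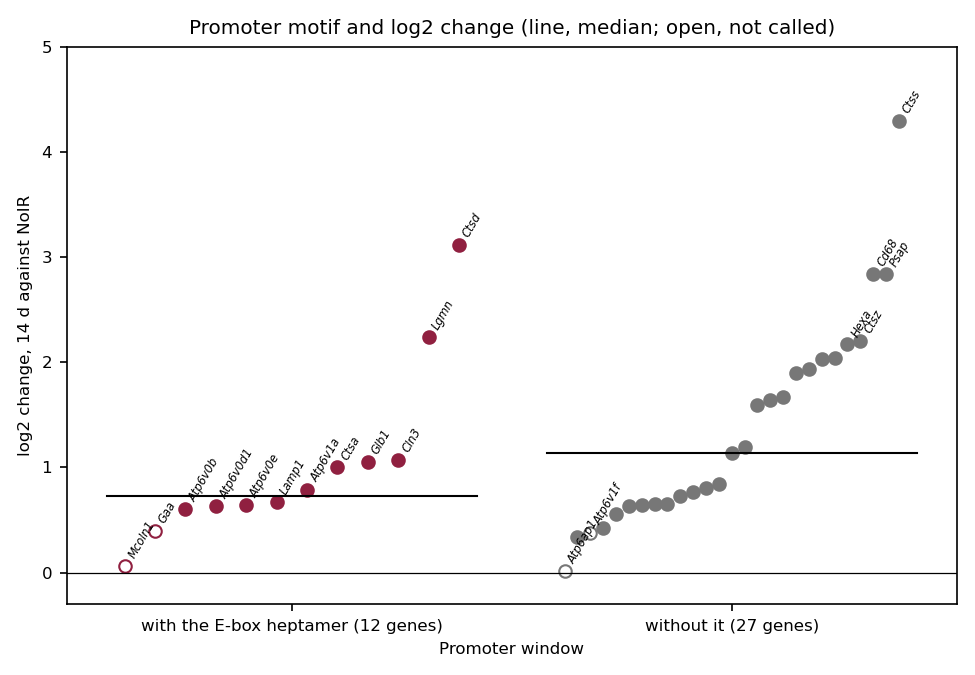
log2 change at 14 d against NoIR of the 39 genes with a promoter window, split by presence of the heptamer; each point is a gene, open where not called, and lines are medians. Genes with it range from 0.06 to 3.12 (median 0.73) and those without from 0.01 to 4.30 (median 1.14).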

How the data were processed

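The values are the counts per gene symbol that the authors deposited, 1 table per sample. TopHat and the build mm10 are named in the submitters' processing notes; the sources used here give no version, counting program, annotation or strand setting. Trizol was the extraction reagent and the libraries were NEBNext Ultra II Directional ones from 1.3 µg of RNA, per the labels' protocols. Symbols on more than 1 line (35) were summed. Each table holds 23282 lines, and depth is 19624554 to 27765751 counts per sample.

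The members and the other lists were chosen with earlier results of these data known. All 12 samples were fitted together with edgeR 4.0.16 in R 4.3.3 (TMM scaling, filterByExpr, quasi-likelihood F test), which tested 16484 genes and left out 6754. Calls used a Benjamini-Hochberg adjusted p below 0.05, and SE is the absolute log2 change over the square root of F. CPM use scaled library sizes, values after ± are SD over 3 libraries, and intervals cover counting error or fit error only. Intervals of log2 changes use a normal quantile on the SE, so they are somewhat narrower than the F test implies. The fit was tested on simulated counts with known changes.

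Values of each library are given for the 2 members of a class with the highest and the 1 with the lowest log2 change at 14 d, and for Tfeb, Atp6ap1, Lamp1, Lamp2, Ctsk and Atp6v0d2. From the other lists up to 4 genes were taken by the lowest joint p or a call against their list, and others named there were chosen after their values were seen; a gene of the hydrolase list is not reported here. Coordinates are those of GENCODE M21 (mm10). Lengths are of the best supported APPRIS principal transcript; that choice, and the union of all exons tried in its place, were made after seeing the data. Alternatives were DESeq2 1.42.0, no filter, scaling by library size alone or by median of ratios, a fit of only the 2 groups, a replicate block, removal of Rn45s and haemoglobin genes, and each library left out. The markers Siglec5 and Ly6g were not used here, and protein sequences were not analysed here.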

Additional observations from a re-analysis of the deposited data

How the results depend on the processing

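Several calls lay close to the threshold, among them Tfeb at 14 d, Lamp2 and Atp6v1h at 11 d and Ctss and Psap at 8 d. Counts of called members stayed within 1.5 times with no filter, with scaling by library size alone or by median of ratios, and without Rn45s and haemoglobin genes. A fit of only the 2 groups gave 8 calls in place of 17 from 8 d to 11 d and 5 in place of 8 from 11 d to 14 d, and DESeq2 gave 26 and 16; the cause was not tested. Leaving out 1 library gave 5 to 13 calls at 8 d, 28 to 38 calls at 11 d, 37 to 44 calls at 14 d, 0 to 20 for 11 d against 8 d, 0 to 18 for 14 d against 11 d, 29 to 35 for 14 d against 8 d and 38 to 43 in the joint test. The share of Atp6v0d2 was then 53.5% to 56.3% in NoIR, 43.2% to 46.8% (8 d), 58.2% to 61.4% (11 d) and 73.7% to 74.6% (14 d). Over all settings, 1245 log2 changes of the 23 genes given by library kept direction and side of the threshold, 43 lost a call, 11 gained one and 12 changed sign, all of the last near 0 and uncalled. Without 1 library these ran from -0.20 to 0.16 for Gaa and -0.10 to 0.03 for Atp6v1b2 at 8 d, -0.02 to 0.11 for Lamp2 at 8 d, -0.08 to 0.17 for Asah1 at 11 d, -0.16 to 0.06 for Mcoln1 at 11 d and -0.07 to 0.14 at 14 d, and -0.15 to 0.02 for Atp6ap1 at 11 d and -0.09 to 0.09 at 14 d. With library size alone Atp6v1b2 stood at 0.02 at 8 d.

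Same-numbered samples of 2 groups correlated at -0.353 to 0.287 in their deviations. They were over 0.1 in only 5 of 18 pairs, so the numbers were not taken to pair the samples. As a hint the other way, from the data and not the design, 8 of 12 samples correlated best with their own number. With a replicate block 11 members were called at 8 d, 34 at 11 d, 41 at 14 d, 19 for 11 d against 8 d, 9 for 14 d against 11 d, 31 for 14 d against 8 d and 40 in the joint test. Of the genes given by library, the block ended the calls of Tfeb at 14 d (adjusted p = 0.051) and Lamp2 at 11 d (0.061) and added Man2b1 at 11 d (0.042).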
